A study of Mus musculus with 6 samples.

Results

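The respiratory chain and ATP synthase were followed in cultured mouse neurons through 103 genes, taken from 21553 genes with deposited values. Genes were taken when their symbol began with Nduf, Sdh, Uqcr, Cox4, Cox5, Cox6, Cox7, Cox8, Atp5 or mt-, and when their mean level in untreated neurons was at least 5 cRPKM, a read density per kilobase of gene, scaled to the depth of the library, that the authors computed. The prefixes matched 111 genes, of which 110 had values. The mitochondrial genome encodes 12 of the 103 members and the nuclear genome 91. All 103 passed the filter on low counts and stand among the 15895 genes tested.

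Hippocampal neurons had been taken from C57bl/6 mice at E16.5, late in gestation, and grown for 10 days in culture. They were left untreated or exposed to 55 mM KCl, which depolarises neurons and serves as a stand-in for strong activity, for 0.5 h or 3 h. Each of these 3 groups has 2 libraries, called biological duplicates by the submitters. The labels do not say whether they are separate cultures or litters, and the p-values below reflect only how far such libraries differ. No genotype or Cre was involved, and the cultures are mixed primary cells sampled whole.

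Oxidative phosphorylation passes electrons from NADH through complex I, or from succinate through complex II, to ubiquinone, then through complex III and cytochrome c to complex IV, where oxygen is reduced. Complexes I, III and IV pump protons and complex V, the ATP synthase, uses the proton gradient to make ATP. Complexes I, III, IV and V are built from subunits of both genomes, while every subunit of complex II is nuclear encoded. In neurons this machinery supplies most of the ATP that restores ion gradients after electrical activity.

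The libraries held 98882007 to 141865913 counts. The cultures expressed Snap25, a synaptic vesicle fusion gene, at 224 to 293 cRPKM and Rbfox3, a marker of mature neurons, at 14.5 to 25.4 cRPKM. Fos, an immediate early gene, stood at 7.98 and 8.14 cRPKM in the untreated libraries and at 223 to 344 in the 4 KCl libraries, as their labels require. Cultures were not pure: the astrocyte marker Gfap was at 22.4, 22.8 and 24.6 cRPKM in replicate 1 of the untreated, 0.5 h and 3 h groups and at 307, 335 and 475 in replicate 2. The sum of 10 astrocyte markers was 1041 to 1084 cRPKM in the replicate 1 libraries and 1542 to 2210 in the replicate 2 libraries, and the sum of 10 pan-neuronal markers was lowest, at 1447, in 3 h replicate 2. In bulk RNA, fewer cells of a type and less RNA per cell cannot be told apart. Microglial markers summed to 9.1 to 11.8 cRPKM with Tmem119 at 0 to 0.05, and endothelial and mural markers summed to 3.96 to 6.79 with Cldn5 at 0.05 to 0.14.

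Nuclear encoded members make up 36 subunits of complex I, 4 of complex II, 8 of complex III, 15 of complex IV, 17 of complex V and 11 assembly factors. The mitochondrial members are 6 genes of complex I, mt-Cytb of complex III, 3 genes of complex IV and 2 of complex V. The authors gave no value for mt-Nd4l. Of the 7 matching genes under the threshold, the nearest were the processed pseudogene Atp5l-ps1, with a mean of 3.52 cRPKM in untreated neurons, and Cox7a1, the heart and muscle form of a complex IV subunit, with 3.31. The nearest above it were the assembly factor Ndufaf4, at 6.13 and 5.77 cRPKM in the untreated libraries, and Cox6b2, the testis form of a complex IV subunit, at 4.87 and 7.40.

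Mitochondrially encoded transcripts were far more abundant than nuclear encoded ones. Together the 12 genes took 4.56% and 3.80% of all counts in the untreated libraries, 4.23% and 3.88% after 0.5 h, and 4.61% and 4.90% after 3 h. The 91 nuclear members took 0.897% and 0.955%, then 0.901% and 1.00%, then 0.944% and 1.05%. The mitochondrial share was above all other libraries in both 3 h libraries, by a margin of 4.61% over 4.56% at the closest, and the nuclear share overlapped between the groups.

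Among the mitochondrial genes mt-Atp6, which encodes the proton channel subunit of ATP synthase, had the highest level, at 10777 ± 2231 cRPKM in untreated neurons (SD, n = 2). The cytochrome oxidase genes followed, with mt-Co2 at 8583 ± 1301, mt-Co1 at 7919 ± 501 and mt-Co3 at 6524 ± 651. The cytochrome b gene mt-Cytb stood at 4717 ± 753. Next came mt-Nd4 at 2745 ± 552, mt-Atp8 at 2715 ± 954, mt-Nd1 at 2673 ± 405, mt-Nd5 at 2318 ± 267, mt-Nd6 at 2187 ± 228 and mt-Nd2 at 2041 ± 498, all of complex I apart from mt-Atp8, a small stalk subunit of ATP synthase. The complex I gene mt-Nd3 was lowest, at 1233 ± 270. Neighbours in this order overlapped between their untreated libraries except at 4 steps: mt-Co1 lay above mt-Co3, mt-Co3 above mt-Cytb, mt-Cytb above mt-Nd4, and mt-Nd2 above mt-Nd3.

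**Figure D1:**
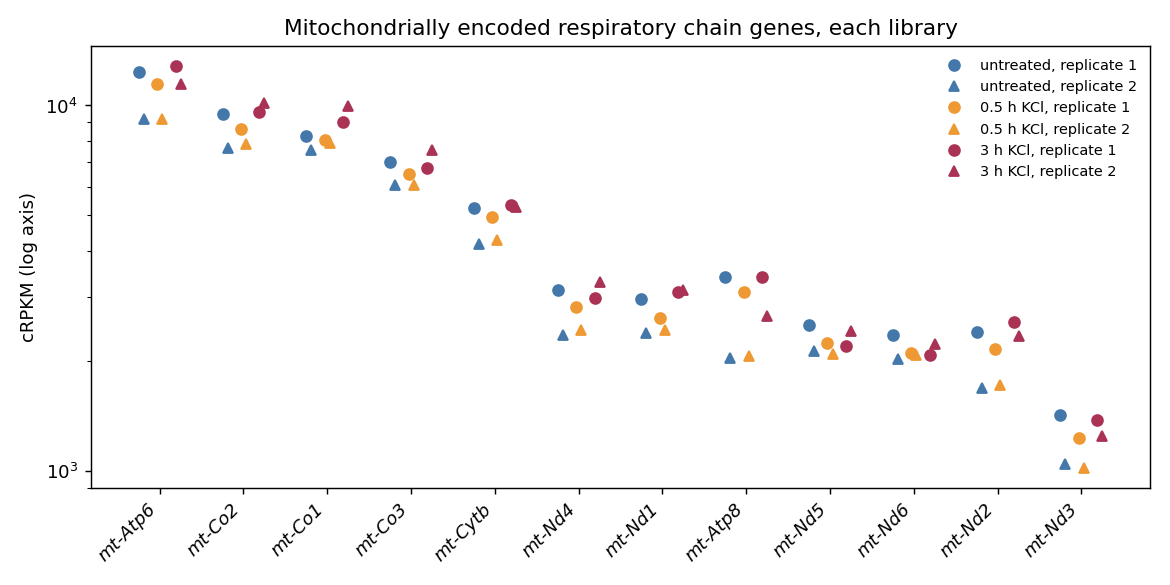
Level of the 12 mitochondrially encoded genes in each of the 6 libraries, in cRPKM on a log axis; colours mark the group and symbols the replicate number. The untreated and 0.5 h replicate 1 libraries lie above their replicate 2 counterparts for all 12 genes, and untreated means run from 10777 cRPKM for mt-Atp6 to 1233 for mt-Nd3.

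The levels of the ATP synthase pair rest on few positions. A gene length was inferred from each count divided by its cRPKM and scaled to library depth, as the median over libraries. This implied length came to 83 positions for mt-Atp6, whose annotated transcript has 681 bases, and 24 positions for mt-Atp8, whose transcript has 204. These genes overlap by 43 bases on the same strand. The shared stretch, from the GENCODE mouse transcripts, is shown with the mt-Atp6 start codon in capitals because both genes hold these bases.
mt-Atp8 and mt-Atp6 overlap: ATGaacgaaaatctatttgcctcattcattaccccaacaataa
The genes mt-Nd5 and mt-Nd6 overlap by 14 bases on opposite strands, and the library kit does not mark strand, so RNA of either strand at mt-Nd6 cannot be told apart. For 53 of the 103 members the implied length equalled an annotated transcript length minus 49 positions, within 1 position.

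After 0.5 h of KCl no member passed the test. In edgeR's quasi-likelihood test with Benjamini-Hochberg adjustment over all genes, 0 of 103 were called higher and 0 lower, beside 0.0377% and 0.0% of all genes tested. No member reached an unadjusted p below 0.05, where 0.629% of all genes were higher and 0.176% lower. The fit with a replicate block called no member either, and 0.0818% of all genes higher. DESeq2 called no member, beside 0.22% of all genes higher and 0.0126% lower, and limma none, beside 0.0629% or 0.0252% higher at a pseudocount of 0.1 or 1. The nuclear members had a median log2 change of 0.02, with 69 of 91 above 0, and the median of all genes tested was 0.00. The 12 mitochondrial genes had a median of -0.09 and all 12 fitted changes were below 0, from -0.15 for mt-Nd3 to -0.01 for mt-Co1. By replicate number the mitochondrial median was -0.15 in replicate 1 and -0.01 in replicate 2. Lower in both numbers were 9 of 12, where 31.8% of all genes were, and none of the 12 had both 0.5 h libraries below both untreated libraries (6.38% of all genes). The 12 genes also moved together between replicates, as described below, so such counts are not 12 independent observations. Of the nuclear members 36 of 91 were higher in both numbers (32.0% of all genes) and 7 had both 0.5 h libraries above both untreated ones (14.8%).

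After 3 h a single member, Uqcrh, passed the test. Of 103 members 1 was called higher (0.971%) and 0 lower, beside 8.71% and 6.84% of all genes tested, so the called share was smaller among members than among all genes. At an unadjusted p below 0.05 the members gave 17 higher and 2 lower, and the background was 17.8% and 16.6%. The fit with replicate number as a block called 14 higher and 2 lower, where it called 18.6% of all genes in each direction. DESeq2 called 11 and 1, beside 14.3% and 11.7% of all genes. On log2 cRPKM limma called 0 and 0, beside 6.44% and 7.73% of all genes at a pseudocount of 0.1 and 6.01% and 7.49% at 1. The members called higher with the block were Uqcrh and Uqcrb of complex III, Ndufb6 and Ndufb11 of complex I, Cox6b1, Cox6b2, Cox6c, Cox8a and Ndufa4 of complex IV, Atp5g3, Atp5j2, Atp5l and Atp5mpl of complex V, and the assembly factor Ndufaf2. Those called lower were the assembly factors Ndufaf1 and Ndufaf7. The 3 h replicate 2 library stood apart for genes of short implied length, as described below.

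Uqcrh (ENSMUSG00000063882) encodes the hinge protein of complex III, which sits at the docking site of cytochrome c. Its level was 189 and 205 cRPKM in untreated neurons, 194 and 226 after 0.5 h, and 238 and 288 after 3 h. Both 3 h libraries lay above the other 4, and in each group replicate 2 was the higher. Uqcrh rose 1.38-fold at 3 h, a log2 change of 0.47 ± 0.11 (SE, n = 2, edgeR quasi-likelihood, adjusted p = 0.047), and it was higher in both replicate numbers, by 0.42 and 0.51. The adjusted p was 0.0083 in edgeR's fit with the replicate block. It was 0.091 in edgeR scaled by library totals, 0.11 in limma, and between 0.081 and 0.22 in edgeR when any library but 3 h replicate 1 was left out. Against 0.5 h the log2 change was 0.40 (edgeR adjusted p = 0.078, and 0.014 with the block). Annotated pseudogenes carry the Uqcrh name, as they do for Atp5c1, Atp5k, Atp5l and Ndufab1, and how reads matching several places were counted is not given in the sources used here.

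Promoter sequence was available from RefSeq (GRCm38.p6) for 77 of the 91 nuclear members, as 82 windows reaching from 250 bases before to 50 after an annotated start. The stretch shown for Uqcrh, the member that passed the test, is the 150 bases before its start at chr4:116075071-116075220 on the minus strand, with a match to the GABP motif CCGGAAGT, here on the reverse strand, in capitals.
Uqcrh: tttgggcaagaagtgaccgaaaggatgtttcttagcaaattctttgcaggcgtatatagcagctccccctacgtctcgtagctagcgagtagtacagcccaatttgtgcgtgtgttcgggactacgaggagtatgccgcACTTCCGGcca
GABP, an Ets family factor, and NRF1 are textbook regulators of nuclear respiratory genes. The NRF1 motif, GCGC and TGCGC with any 1 base between, stood on either strand in 25.6% of the members' windows and in 4.6% of all 32851 RefSeq promoter windows of that length. For GABP the shares were 6.1% and 3.89%, for YY1 (AAGATGGC) 13.4% and 2.75%, for the cyclic AMP response element TGACGTCA 4.88% and 1.79%, and for SP1 (GGGCGG) 46.3% and 35.7%. Motif letters were searched on both strands, and TGACGTCA reads the same on each.

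Among complexes the NRF1 motif was in 8 of 34 windows of complex I, 2 of 3 of complex II, 1 of 5 of complex III, 1 of 12 of complex IV and 6 of 18 of complex V. The 3 members with the highest level among those with the motif in the 150 bases before the start illustrate it, with its letters and those of GABP and SP1 in capitals. They are the complex IV subunit Cox6a1, at chr5:115348959-115349108, and the ATP synthase subunits Atp5k, at chr5:108434400-108434549, and Atp5h, at chr11:115419920-115420069, all on the minus strand of GRCm38.p6.
Cox6a1: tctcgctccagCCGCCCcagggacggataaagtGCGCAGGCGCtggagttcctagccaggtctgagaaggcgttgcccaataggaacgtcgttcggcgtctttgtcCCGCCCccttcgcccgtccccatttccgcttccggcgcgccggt
Atp5k: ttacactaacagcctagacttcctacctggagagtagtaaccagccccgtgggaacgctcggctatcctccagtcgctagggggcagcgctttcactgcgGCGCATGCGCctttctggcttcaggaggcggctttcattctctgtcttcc
Atp5h: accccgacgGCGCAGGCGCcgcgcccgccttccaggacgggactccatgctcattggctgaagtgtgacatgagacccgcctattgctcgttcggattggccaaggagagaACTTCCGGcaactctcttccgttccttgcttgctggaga
The 20 matched genes with the NRF1 letters had a median log2 change of 0.12 at 3 h, from -0.16 to 0.45, and the 57 without them one of 0.14, from -0.40 to 0.86.

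At 3 h most nuclear subunits had fitted changes above 0. Their median log2 change was 0.08 for the 36 genes of complex I, 0.08 for the 4 of complex II, 0.15 for the 8 of complex III, 0.23 for the 15 of complex IV and 0.25 for the 17 of complex V. All genes tested had a median of -0.02. In replicate 1 alone the medians were 0.08, 0.05, 0.16, 0.20 and 0.16 for complexes I to V, and in replicate 2 alone 0.07, 0.11, 0.17, 0.24 and 0.22. Higher in both replicate numbers were 24 of 36 genes of complex I, 3 of 4 of complex II, 5 of 8 of complex III, 14 of 15 of complex IV and 15 of 17 of complex V, where 38.0% of all genes were. The assembly factors had a median of -0.08, with 4 of 11 higher and 6 of 11 lower in both replicate numbers, where 41.5% of all genes were lower in both. No test compared the complexes with each other. Both 3 h libraries lay below both untreated libraries for 4 of the 11, as they did for 35.9% of all genes. Cell type markers moved in the same comparison, and their part in these medians was not tested. The 10 astrocyte markers had a median log2 change of 0.38 with 9 above 0, the 10 pan-neuronal markers one of -0.21 with 9 below 0, and the 10 progenitor markers one of 0.27 with 7 above 0. Of all genes tested 48.1% were above 0. No astrocyte or pan-neuronal marker was called by edgeR without the block. In replicates 1 and 2 the astrocyte median was 0.18 and 0.53, and the pan-neuronal median -0.01 and -0.47. Higher in both numbers were 7 of 10 astrocyte markers (38.0% of all genes), and lower in both were 5 of 10 pan-neuronal markers (41.5%). The progenitor sum was 183 to 215 cRPKM in the untreated and 0.5 h libraries and 432 and 554 at 3 h, and Vim, the intermediate filament gene vimentin, was the only progenitor marker called, with a log2 change of 2.08 (edgeR adjusted p = 0.0073).

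**Figure D2:**
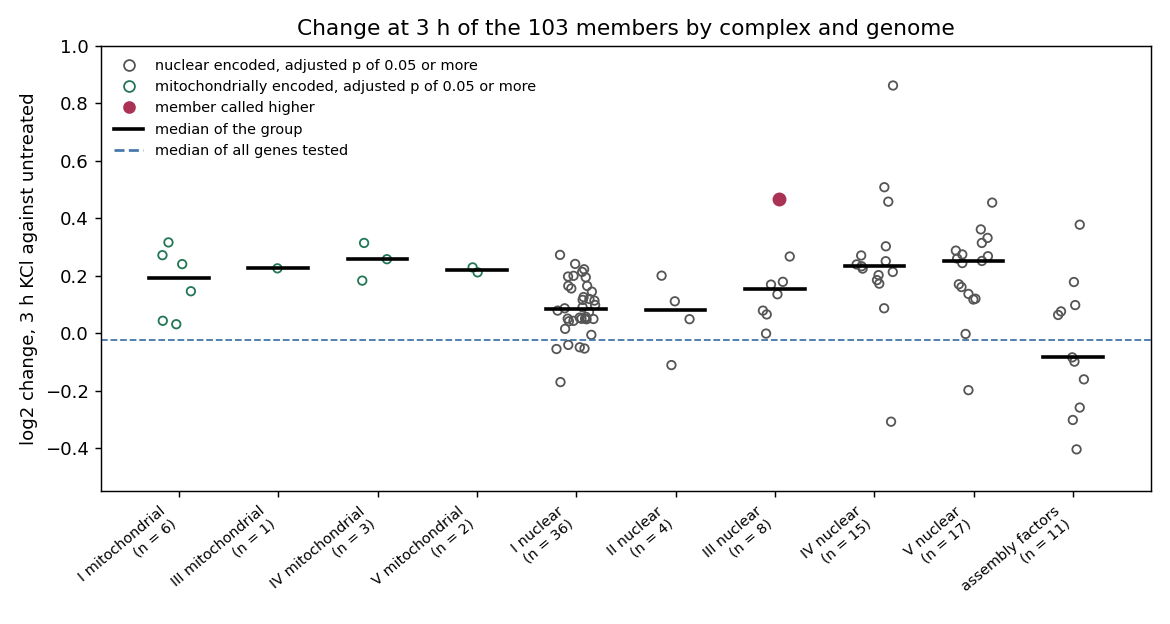
Fitted log2 change at 3 h against untreated for each of the 103 members, grouped by complex and genome; black bars are group medians and the dashed line is the median of all genes tested (-0.02). Nuclear subunits of complexes IV and V have medians of 0.23 and 0.25, the assembly factors one of -0.08, and the filled point is Uqcrh at 0.47.

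Within complex I, the NADH dehydrogenase, Ndufb9, an accessory subunit, had the highest mean level, at 144 and 154 cRPKM in untreated neurons and 142 and 163 after 3 h, and its groups overlapped. Ndufb6, another accessory subunit of the membrane arm, was at 76.0 and 76.0 cRPKM untreated, 77.7 and 79.4 after 0.5 h, and 83.3 and 93.8 after 3 h. Both 3 h libraries lay above the other 4, and the log2 change at 3 h was 0.27 ± 0.08 (edgeR adjusted p = 0.067, and 0.032 with the block). Ndufb11, also of the membrane arm, was at 75.9 and 80.2 untreated, 77.9 and 87.2 at 0.5 h and 87.1 and 90.5 at 3 h, a log2 change of 0.24 ± 0.09 (edgeR adjusted p = 0.11, block 0.046). The core subunits Ndufs1, Ndufs3, Ndufs7, Ndufs8, Ndufv1 and Ndufv2 had overlapping untreated and 3 h libraries.

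Complex II, the succinate dehydrogenase, gave no call. Sdhb, its iron-sulfur subunit, was at 104 and 115 cRPKM untreated, 104 and 122 at 0.5 h, and 93.2 and 102 at 3 h, and both 3 h libraries lay below the untreated ones (log2 change -0.11 ± 0.10, edgeR adjusted p = 0.50). Sdhd, a membrane anchor, was at 87.1 and 97.8 untreated, 87.3 and 102 at 0.5 h and 91.4 and 114 at 3 h, so the groups overlapped (0.20 ± 0.12, edgeR adjusted p = 0.31). The flavoprotein gene Sdha and the anchor gene Sdhc overlapped between untreated and 3 h.

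In complex III, Uqcr10, a small accessory subunit, had the highest level, at 260 and 287 cRPKM untreated and 278 and 318 at 3 h, with overlapping groups. Uqcrb, the subunit next to the ubiquinone site, was at 118 and 125 untreated, 116 and 135 at 0.5 h, and 128 and 155 at 3 h. Its 3 h libraries were above both untreated libraries but not above both 0.5 h libraries (log2 change 0.27 ± 0.11, edgeR adjusted p = 0.14, block 0.037). The large core proteins Uqcrc1 and Uqcrc2 overlapped between the untreated and 3 h libraries.

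Complex IV holds alternative subunit forms for different tissues, and in these cultures the ubiquitous forms had the higher levels. Cox6a1 was at 461 and 501 cRPKM untreated, 460 and 525 at 0.5 h and 512 and 540 at 3 h, and its striated muscle counterpart Cox6a2 at 8.11 and 13.3, then 8.99 and 14.0, then 6.63 and 10.1. Cox4i1 was at 419 and 421 untreated, 428 and 452 at 0.5 h and 452 and 499 at 3 h, against at most 0.38 in any library for Cox4i2, the lung form. Cox7a2 was at 138 and 144 untreated and 151 and 164 at 3 h, against 2.77 and 3.84, and 3.54 and 4.11, for Cox7a1. In each of these pairs the ubiquitous form exceeded the other in all 6 libraries.

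The remaining pairs kept the same order. Cox6b1 was at 373 and 391 cRPKM untreated, 385 and 413 at 0.5 h and 419 and 442 at 3 h, and Cox6b2 at 4.87 and 7.40, 4.96 and 7.80, and 5.75 and 10.6. Cox8a was at 361 and 422 untreated, 356 and 440 at 0.5 h and 415 and 483 at 3 h. Its muscle form Cox8b was at 11.1, 11.7 and 12.5 in the replicate 1 libraries and 4.20, 5.54 and 5.56 in the replicate 2 libraries. Replicate 1 was thus higher in every group. Within replicates 1 and 2 the log2 differences at 3 h were 0.25 and 0.43, and the fitted change was not called (0.30 ± 0.66, edgeR adjusted p = 0.78). Ndufa4, once assigned to complex I and now counted as a complex IV subunit, was at 371 and 373 untreated, 372 and 401 at 0.5 h and 407 and 439 at 3 h, against 0.13 to 0.98 for Ndufa4l2, its hypoxia-responsive relative.

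Several ubiquitous complex IV genes had both 3 h libraries above both untreated ones without passing the test. The log2 changes were 0.23 ± 0.09 for Cox4i1, 0.23 ± 0.09 for Cox6b1, 0.24 ± 0.09 for Ndufa4 and 0.21 ± 0.09 for Cox7a2, with edgeR adjusted p of 0.14, 0.13, 0.11 and 0.15. With the block the edgeR adjusted p was 0.0499 for Cox6b1 and 0.043 for Ndufa4. In all, 7 of the 15 complex IV genes had no overlap between the untreated and 3 h libraries and a higher 3 h level, where 24.1% of all genes did. The same held for 6 of 36 nuclear genes of complex I, 0 of 4 of complex II and 3 of 8 of complex III. Both 3 h libraries lay below both untreated ones for 2 genes of complex I and 1 of complex II, where 35.9% of all genes did.

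In complex V, Atp5b, the catalytic beta subunit, had the highest level of any nuclear member, at 554 and 552 cRPKM untreated, 559 and 570 at 0.5 h and 641 and 634 at 3 h. Both 3 h libraries stood above the other 4, a log2 change of 0.26 ± 0.11 (edgeR adjusted p = 0.16). Atp5mpl, a small membrane subunit, was at 171 and 167 untreated, 178 and 176 at 0.5 h, and 191 and 206 at 3 h (0.29 ± 0.08, edgeR adjusted p = 0.059, block 0.026). Its 3 h libraries too were above all others. Of the 17 nuclear subunits 11 had higher 3 h than untreated libraries without overlap and 1 had lower ones, beside 24.1% and 35.9% of all genes.

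The ring of c subunits, through which protons pass, is encoded by 3 genes for the same mature protein, at different levels. Atp5g3 was at 346 and 331 cRPKM untreated, 345 and 352 at 0.5 h and 394 and 427 at 3 h, with both 3 h libraries highest (log2 change 0.33 ± 0.09, edgeR adjusted p = 0.064, block 0.023). Atp5g2 was at 168 and 172 untreated, 173 and 187 at 0.5 h and 167 and 188 at 3 h (0.12 ± 0.09, edgeR adjusted p = 0.38). Atp5g1 was at 28.4 and 31.3, then 28.6 and 32.8, then 27.5 and 29.9 (0.00 ± 0.10, edgeR adjusted p = 0.99). Atp5g2 and Atp5g1 overlapped between untreated and 3 h, and the difference in change among the 3 genes was not tested.

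Assembly factors, which help build complexes without remaining in them, were expressed at lower levels than most subunits, with a median of 10.9 to 14.5 cRPKM per library. Ndufaf5, a complex I assembly factor, was the highest by mean, at 20.5 and 22.6 cRPKM untreated and 20.9 and 23.5 at 3 h. Ndufaf7, a methyltransferase that acts on a complex I subunit, was at 15.0 and 15.2 untreated, 14.8 and 16.3 at 0.5 h, and 11.1 and 12.5 at 3 h, with both 3 h libraries lowest (log2 change -0.30 ± 0.09, edgeR adjusted p = 0.070, block 0.027). Ndufaf2, a chaperone of a late complex I intermediate, was at 18.3 and 15.9 untreated, 18.2 and 16.6 at 0.5 h, and 21.9 and 20.9 at 3 h, with both 3 h libraries highest (0.38 ± 0.14, edgeR adjusted p = 0.13, block 0.023).

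**Figure D3:**
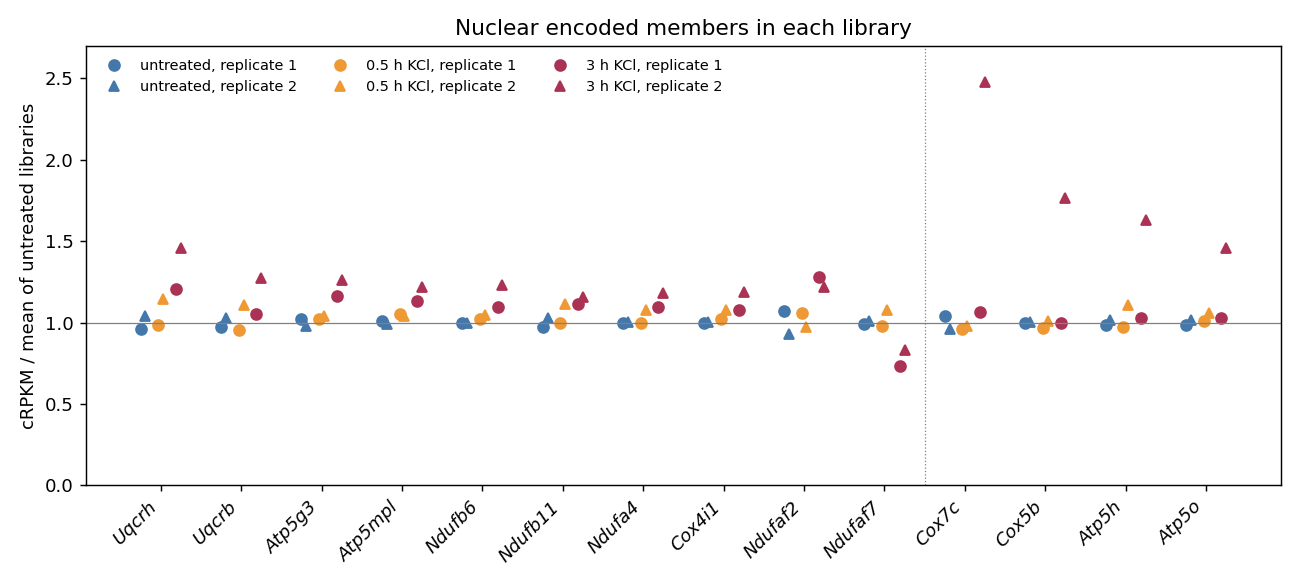
Level of 14 nuclear encoded members in each library, as cRPKM divided by the mean of the untreated libraries; colours mark the group and symbols the replicate number. Left of the dotted line, Uqcrh reaches 238 and 288 cRPKM at 3 h and Ndufaf7 stands at 11.1 and 12.5; right of it are 4 genes of short implied length whose 3 h replicate 2 library stands apart.

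A group of genes of short implied length was high in 1 library, 3 h replicate 2, and these were picked out after their values were seen. Cox7c, a small complex IV subunit, was at 109, 101, 101, 103 and 112 cRPKM in the other libraries (untreated 1 and 2, 0.5 h 1 and 2, 3 h 1) and at 260 in 3 h replicate 2. Cox5b, of complex IV, was at 148 to 154 in the other 5 libraries and at 271 in that library. Of the ATP synthase stalk subunits, Atp5h was at 169 to 193 in the other 5 libraries and 284 there, and Atp5o at 441 to 475 and 654.

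The implied lengths of these genes were 171 positions for Cox7c, 176 for Cox5b, 163 for Atp5h and 319 for Atp5o. For Cox7c and Cox5b the implied length did not equal an annotated transcript length minus 49 positions. Genes of short implied length were often higher in 3 h replicate 2 than in replicate 1. Among genes with at least 500 counts in each library, replicate 2 exceeded replicate 1 by over 0.4 log2 units in 16 of 22 genes with 100 to 200 positions (72.7%), in 9 of 22 with 200 to 300 (40.9%), in 18 of 106 with 300 to 500 (17.0%) and in 9.35% of the 7915 above 2000. Atp5o, in the range of 300 to 500 positions, was the 1 nuclear member of 17 there with such a difference. The fitted log2 changes at 3 h, 0.86 ± 0.34 for Cox7c (edgeR adjusted p = 0.14) and 0.51 ± 0.23 for Cox5b (0.18), therefore rest on that library: in replicate 1 alone they were 0.12 and 0.08.

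**Figure D4:**
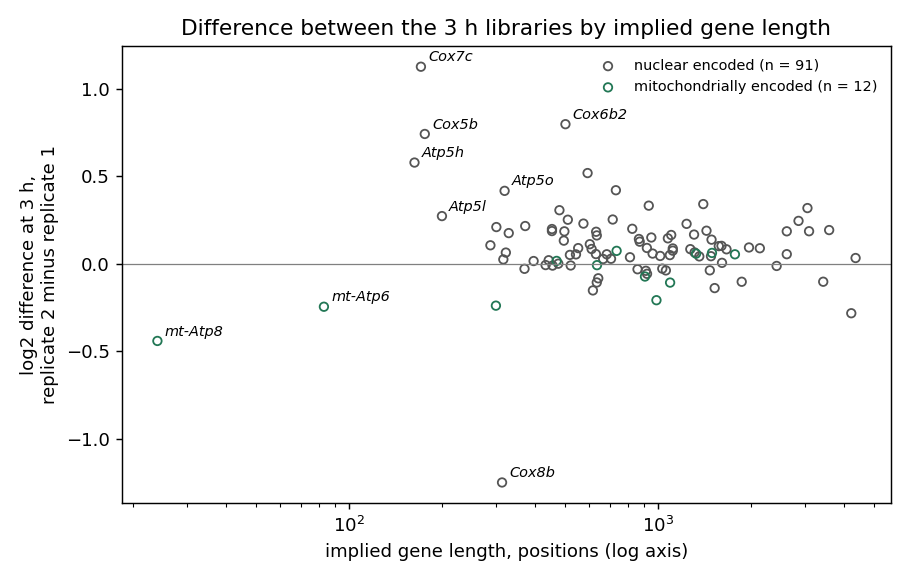
Log2 difference between the 3 h libraries (replicate 2 minus replicate 1, scaled counts) against implied gene length in positions on a log axis, for the 91 nuclear and 12 mitochondrial members. Cox7c, with 171 positions, lies highest, Cox5b and Atp5h, with 176 and 163, lie among the highest, and mt-Atp8 and mt-Atp6, with 24 and 83, lie below 0.

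None of the 12 mitochondrial genes passed the test at 3 h, although all their fitted changes were above 0. The median log2 change was 0.23, from 0.03 for mt-Nd6 to 0.32 for mt-Nd2. No member of the 12 had an unadjusted p below 0.05 in edgeR, the replicate block called none, and DESeq2 called mt-Co1. By replicate number the median was 0.10 in replicate 1 and 0.38 in replicate 2. Higher in both numbers were 10 of 12, where 38.0% of all genes were. In 4 of 12, or 33.3%, both 3 h libraries lay above both untreated libraries, where 24.1% of all genes did. Here too the 12 genes are not independent observations.

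The core catalytic subunit of complex IV, mt-Co1, was at 8273 and 7565 cRPKM untreated, 8028 and 7891 at 0.5 h, and 9005 and 9983 at 3 h. Both 3 h libraries stood above the other 4, and the log2 change was 0.31 ± 0.16 (edgeR adjusted p = 0.22). For mt-Co2, which takes electrons from cytochrome c, the levels were 9503 and 7663, then 8648 and 7820, then 9622 and 10162 (0.26 ± 0.17, edgeR adjusted p = 0.35). For mt-Co3 they were 6984 and 6063, then 6497 and 6055, then 6747 and 7541, with untreated and 3 h libraries overlapping (0.18 ± 0.15, edgeR adjusted p = 0.44).

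In complex III, mt-Cytb was at 5249 and 4185 cRPKM untreated, 4966 and 4287 at 0.5 h, and 5351 and 5274 at 3 h, where both libraries were the highest (0.23 ± 0.19, edgeR adjusted p = 0.43). In complex I, mt-Nd1 was at 2959 and 2386, then 2620 and 2432, then 3094 and 3123, also without overlap at 3 h (0.27 ± 0.16, edgeR adjusted p = 0.29). mt-Nd2 was at 2393 and 1689, then 2162 and 1720, then 2549 and 2342, and its untreated and 3 h libraries overlapped (0.32 ± 0.23, edgeR adjusted p = 0.38). The other complex I genes overlapped as well: mt-Nd4 was at 3136 and 2355 untreated and 2973 and 3287 at 3 h, and mt-Nd3 at 1424 and 1042 and at 1382 and 1243.

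For mt-Nd5 the levels were 2507 and 2129 untreated and 2192 and 2416 at 3 h, and for mt-Nd6 2349 and 2026 and 2078 and 2232. These had the smallest fitted changes, 0.04 ± 0.15 and 0.03 ± 0.13, and with scaling by library totals both were below 0, at -0.01 and -0.02. The ATP synthase genes mt-Atp6, at 12354 and 9200 untreated and 12820 and 11482 at 3 h, and mt-Atp8, at 3389 and 2040 and then 3390 and 2651, overlapped between the groups. Their log2 changes were 0.23 ± 0.21 and 0.21 ± 0.32 (edgeR adjusted p = 0.49 and 0.68).

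The mitochondrial genes were ordered by replicate number in the untreated and 0.5 h groups. In the untreated group replicate 1 was higher for 12 of 12 genes, with a median log2 difference of replicate 2 minus replicate 1 of -0.34. At 0.5 h it was again higher for 12 of 12 (-0.22), and at 3 h for 7 of 12 (-0.04). The nuclear members leaned the other way, with medians of 0.07, 0.12 and 0.09 and replicate 2 higher for 73, 81 and 72 of 91. Of all 15895 genes tested, replicate 2 was higher for 8161, 8060 and 8104, with medians of 0.007, 0.003 and 0.007. Marker sums also followed the replicate number in all 3 groups. Higher in replicate 1, as the mitochondrial genes were, were the sums of 10 pan-neuronal markers (2327 and 2187 cRPKM untreated, 2262 and 2059 at 0.5 h, 1962 and 1447 at 3 h), of 10 oligodendrocyte lineage markers (295 and 206, 257 and 198, 305 and 226) and of 6 fibroblast markers (43.5 and 32.2, 44.1 and 32.9, 44.0 and 29.2). Higher in replicate 2 were Gfap and the astrocyte sum. The sums weigh the most abundant genes most, and single neuronal markers differed from theirs. Rbfox3 was at 20.5 and 25.4 cRPKM untreated, 20.5 and 24.3 at 0.5 h, and 18.9 and 14.5 at 3 h. Snap25 was at 260 and 293, then 252 and 286, then 265 and 224. Both were thus higher in replicate 2 in the untreated and 0.5 h groups. The part of these cell types in the differences was not tested.

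The mitochondrial to nuclear ratio was taken within each library. The summed cRPKM ratio was 5.56 and 4.19 in untreated neurons, 5.11 and 4.03 after 0.5 h, and 5.30 and 4.61 after 3 h. Replicate 1 exceeded replicate 2 in every group and the 3 groups overlapped. At 0.5 h the ratio was 0.919 of the untreated value in replicate 1 and 0.962 of it in replicate 2. At 3 h it was 0.953 and 1.10 of it, in opposite directions. Without mt-Atp6 and mt-Atp8, whose levels rest on few positions, the ratio was 4.11 and 3.22 untreated, 3.78 and 3.11 after 0.5 h, and 3.90 and 3.56 after 3 h.

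In each complex with subunits of both genomes, the mean cRPKM of mitochondrial subunits was divided by that of nuclear subunits, and replicate 1 exceeded replicate 2 in every group. For complex I the ratio was 34.1 and 24.7 untreated, 30.2 and 23.5 at 0.5 h, and 32.6 and 29.7 at 3 h. For complex III it was 37.1 and 26.9, then 35.0 and 26.1, then 34.9 and 30.2. For complex IV it was 40.5 and 33.0, then 37.9 and 32.1, then 38.0 and 35.3. For complex V it was 36.8 and 25.6, then 33.8 and 24.3, then 35.1 and 26.2. The mitochondrial side of complex V is mt-Atp6 and mt-Atp8 alone, whose levels rest on few positions. At 0.5 h every ratio was below the untreated value of the same replicate number, and at 3 h every one was below it in replicate 1 and above it in replicate 2.

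**Figure D5:**
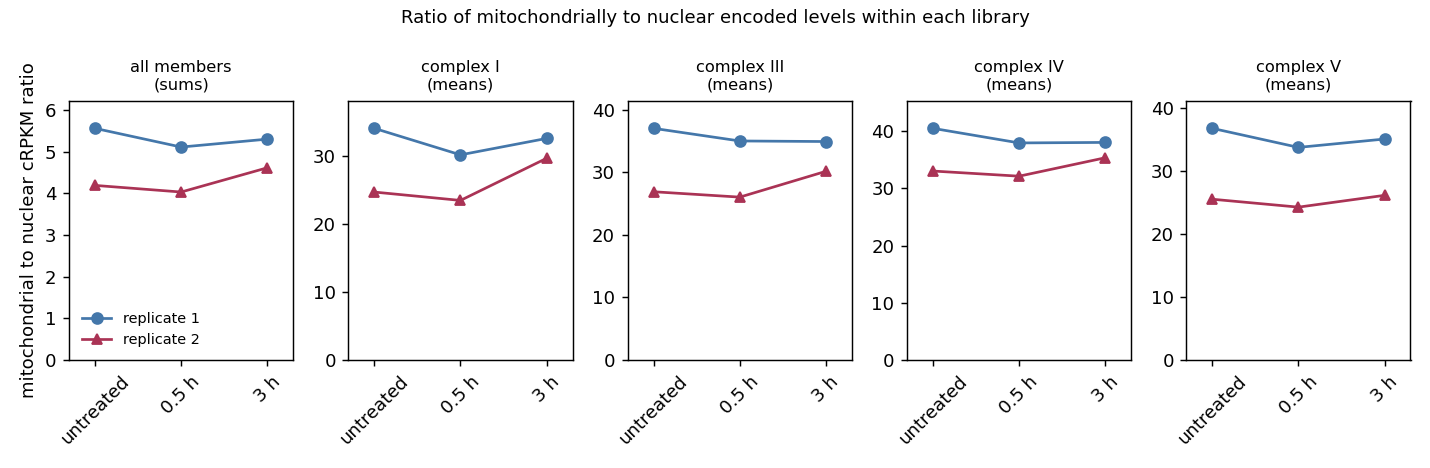
Ratio of mitochondrially to nuclear encoded cRPKM in each library, over all members (sums) and within complexes I, III, IV and V (means of subunits); lines join libraries of the same replicate number, and each axis starts at 0. Replicate 1 lies above replicate 2 in every group, from 5.56 and 4.19 untreated to 5.30 and 4.61 at 3 h over all members.

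On the fitted scale, the median change of the mitochondrial members minus that of the nuclear members was -0.11 log2 units at 0.5 h, with an SD of 0.07 between replicate numbers, and 0.10 at 3 h, with an SD of 0.18. The value at 3 h was smaller than this spread. Against 0.5 h, the 3 h value was 0.20 with an SD of 0.13. These comparisons share libraries and are not independent of each other. With 2 libraries in each group an exact permutation test (two-sided) cannot go below p = 0.33, so no test was made of these ratios.

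Between 0.5 h and 3 h no member was called by edgeR, 0 higher and 0 lower, beside 6.39% and 4.87% of all genes tested. Unadjusted p was below 0.05 for 8 higher and 2 lower, beside 15.9% and 14.9% of all genes. DESeq2 called 7 and 1, beside 12.2% and 10.1%, and the block called 12 and 2, beside 15.6% in each direction. On log2 cRPKM limma called 0 and 0, beside 4.32% and 5.54% at a pseudocount of 0.1 and 4.33% and 5.6% at 1. The 12 mitochondrial genes were all higher at 3 h than at 0.5 h in both replicate numbers, with a median log2 change of 0.31, where 37.4% of all genes were higher and 41.0% lower in both. In 9 of 12 both 3 h libraries lay above both 0.5 h libraries, where 21.0% of all genes did and 35.4% lay below. Because the 12 genes moved together between replicates in the untreated and 0.5 h groups, these counts are not 12 independent observations. The block called 3 of them, mt-Nd1, mt-Nd2 and mt-Atp6, with edgeR adjusted p of 0.049, 0.043 and 0.049. The nuclear members had a median of 0.11.

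Regulators of mitochondrial biogenesis gave calls at 3 h. Of 22 such genes 7 rose and 1 fell at 3 h, beside 8.71% and 6.84% of all genes, with a median log2 change of 0.03. With the block 8 and 4 were called, beside 18.6% of all genes in each direction. The same shares of all genes hold for the lists that follow. Gabpb1, a subunit of the GABP factor, went from 7.44 and 6.53 cRPKM to 12.6 and 12.9 (log2 change 0.92 ± 0.13, edgeR adjusted p = 0.013). The growth regulator Myc went from 8.97 and 9.24 to 15.6 and 22.5 (1.11 ± 0.16, edgeR adjusted p = 0.013), and the coactivator Pprc1 from 7.38 and 7.40 to 10.2 and 11.7 (0.62 ± 0.10, edgeR adjusted p = 0.018). For these 3 genes both 3 h libraries were above all others. Ppargc1a, Nrf1, Gabpb2 and Yy1 also rose and the coactivator gene Ppargc1b fell.

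Of 31 genes of mitochondrial transcription and RNA handling 1 rose and 3 fell, beside 8.71% and 6.84% of all genes, with a median of -0.06 and block counts of 3 and 6. Fastkd1, an RNA-binding protein of the mitochondrial matrix, went from 6.00 and 5.86 cRPKM to 3.20 and 3.70 (-0.73 ± 0.11, edgeR adjusted p = 0.015), and Tfb1m, a methyltransferase of mitochondrial ribosomal RNA, from 3.95 and 4.57 to 2.14 and 2.66 (edgeR adjusted p = 0.041). Fastkd5, a processing factor of mitochondrial transcripts, rose from 2.54 and 2.28 to 3.95 and 6.72 (edgeR adjusted p = 0.034). Fastk, of the same family, also fell.

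Of 38 assembly factors and cytochrome c genes outside the prefixes 0 rose and 4 fell, beside 8.71% and 6.84% of all genes, median -0.04, and the block called 3 and 7. Tmem186, a complex I assembly factor, went from 7.60 and 7.70 cRPKM to 3.61 and 4.97 (-0.79 ± 0.15, edgeR adjusted p = 0.026), and Taco1, a translational activator of mt-Co1, from 11.4 and 12.1 to 7.79 and 8.31 (-0.49 ± 0.11, edgeR adjusted p = 0.040). Lyrm7 and Cox10, assembly factors of complexes III and IV, were the other falls. Both 3 h libraries of Tmem186 and Taco1 lay below both untreated libraries.

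Among the 77 mitochondrial ribosomal protein genes tested 1 rose and 1 fell, median 0.02, with block counts of 8 and 5. Mrps6 rose from 53.2 and 53.5 cRPKM to 89.4 and 97.8 (0.86 ± 0.07, edgeR adjusted p = 0.0061) and Mrpl10 fell from 29.6 and 33.6 to 20.4 and 23.6 (-0.47 ± 0.11, edgeR adjusted p = 0.044). Of 28 genes of the citric acid cycle and pyruvate dehydrogenase 0 passed the test at 3 h (unadjusted p below 0.05 in 2 higher and 1 lower, block 4 and 2), with a median of 0.13.

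Of 11 carriers and uncoupling proteins 1 rose: Slc25a3, which brings the phosphate used by ATP synthase into mitochondria. It was at 183 and 194 cRPKM untreated, 196 and 219 at 0.5 h, and 308 and 414 at 3 h, a log2 change of 0.99 ± 0.14 (edgeR adjusted p = 0.014), and both 3 h libraries were far above the other 4. Of 22 genes of glycolysis and its transporters 4 rose and 1 fell, median 0.21, with block counts of 7 and 2. The members with the smallest p, and the member that fell, move metabolites across the cell membrane. The monocarboxylate transporter Slc16a1 went from 17.0 and 15.0 cRPKM to 41.3 and 34.2 (1.30 ± 0.16, edgeR adjusted p = 0.010), and the glucose transporters Slc2a1 and Slc2a3 had log2 changes of 1.24 and 1.27 (edgeR adjusted p = 0.019 and 0.023). The remaining rise was that of Pfkfb3, which is not a transporter gene (0.55, edgeR adjusted p = 0.042). Slc16a7, another monocarboxylate transporter, fell (-0.81, edgeR adjusted p = 0.047).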

How the data were processed

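RNA was sequenced from 6 libraries made with TriReagent and an unstranded TruSeq kit, per the labels' protocols. The submitters' processing notes name Bowtie and mm9. Not given in the sources used here are versions, the annotation and how reads with several matches were counted. The authors deposited for each gene a whole-number read count, not normalized, and an RPKM they call cRPKM, taken here as reads per kilobase of effective length, scaled to library depth. Of 22667 listed genes 21553 had values. Symbols, types and transcript lengths came from a GENCODE annotation of GRCm38, promoters from RefSeq GRCm38.p6, matched by symbol or synonym.

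Counts were tested in edgeR 4.0.16 (R 4.3.3) with TMM scaling, filterByExpr (minimum count 10; 15895 genes holding 99.99% of counts) and a quasi-likelihood F test in 1 model over the 6 libraries, with 3 residual degrees of freedom. Genes with Benjamini-Hochberg adjusted p under 0.05 were called. The script was tested on simulated data. Log2 changes carry the SE of the fit; statements on overlap use cRPKM. The alternatives were DESeq2 1.42.0, limma 3.58.1 on log2(cRPKM + 0.1 or 1), library totals, TMM without mitochondrial genes, no filter, other member thresholds, each library left out, and a replicate block. Replicate 2 minus 1 differences correlated across 15895 genes between groups (r = 0.912, 0.583 and 0.656), so the numbers were taken to pair libraries; the labels do not state this.

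The members and lists were chosen with earlier results of these data known. Named genes are all mitochondrial members, members called, in each nuclear class the highest by mean and the 2 with smallest p at 3 h, isoform pairs, genes nearest the threshold, and up to 3 genes of each list by p.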

Additional observations from a re-analysis of the deposited data

How the results depend on the processing

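At 0.5 h the counts of members called stayed at 0 under every alternative run. At 3 h against untreated the only member called higher, Uqcrh, is 1 of the 5 members that have a pseudogene of their own name. Leaving out those 5 therefore gives 0 by construction. In that comparison the count called higher (1) was 11 with DESeq2 and 14 with the replicate block. It was 0 with library totals and with limma at either pseudocount. It ran from 0 to 9 on leaving out a library, with 9 without 3 h replicate 1 and 0 without any other library. The count called lower (0) was 1 with DESeq2 and 2 with the block. At 3 h against 0.5 h the counts (0 and 0) were 7 and 1 with DESeq2 and 12 and 2 with the block. Leaving out a library gave 0 to 6 higher there, with 6 without 3 h replicate 1. The number of all genes called higher at 3 h against untreated also moved with the setting. It was 1384 in the fit reported above, 2275 with DESeq2, 2963 with the block and 1115 with library totals. On leaving out a library it rose above 1384 only without 3 h replicate 1. The counts of members called therefore do not show by themselves that the members depend on a library more than other genes do. The cause of these differences was not tested.

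The mitochondrial minus nuclear median at 0.5 h (-0.11) ran from -0.31 without untreated replicate 2 to 0.12 without untreated replicate 1, and was 0.06 without 0.5 h replicate 2. At 3 h (0.10) it ran from -0.12 without untreated replicate 2 to 0.31 without untreated replicate 1, and it was -0.0187 in replicate number 1 alone, a setting added after seeing the data. At 3 h against 0.5 h (0.20) it ran from -0.0120 without 0.5 h replicate 2 to 0.38 without 0.5 h replicate 1. Taken within each replicate number, the value at 0.5 h was -0.15 and -0.05 and that at 3 h against 0.5 h 0.11 and 0.30, so these kept their sign, and that at 3 h against untreated did not, with 0.23 in number 2. Leaving out a library breaks the pairing of that number, and the lone library was assumed to vary like the other groups.

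Some small 3 h changes turned sign. Atp5g1 was 0.0141 with DESeq2 and 0.00733 without the filter, and ran from -0.0586 to 0.0566 on leaving out a library. Over the same omissions Cox6a2 ran from -0.612 to 0.0791, Cox8b from -0.46 to 1.19, mt-Atp8 from -0.12 to 0.64 and mt-Nd3 from -0.0706 to 0.402. mt-Nd5 was -0.00882 with library totals and -0.00579 in limma at either pseudocount and ran from -0.0798 to 0.179. mt-Nd6 was -0.0214 with library totals and -0.0185 and -0.0184 in limma and ran from -0.0815 to 0.154. The fewest counts of any member were those of Cox8b, 172 to 546 per library.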
